A study of Mus musculus with 8 samples.

Results

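The cyclic GMP machinery downstream of nitric oxide was measured through 10 genes: 3 subunits of soluble guanylyl cyclase (Gucy1a1, Gucy1b1, Gucy1a2), 2 cyclic GMP-dependent protein kinases (Prkg1, Prkg2) and 5 phosphodiesterases (Pde1c, Pde2a, Pde3a, Pde5a, Pde9a), of the 20659 genes named on the array. Every non-control probe whose RefSeq transcript belongs to one of these genes was taken, which gave 14 of the 39429 probes on the array. Of the genes, 7 had 1 probe, Gucy1a2 and Pde3a had 2 probes each, and Pde1c had 3. All 14 passed the filter on dim probes, and the scanner software called 12 of them well above background on every one of the 8 arrays.

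Samples were myocardium of untreated male mice labelled NPRA-/- (3 arrays) or NPRA+/+ (5 arrays), with total RNA of each sample on 1 single-colour Agilent mouse expression array. The series design text speaks of an m6A array, whereas the series is typed as expression profiling, the labelling protocol is for gene expression of total RNA and the file headers name an expression design. Signals are read here as transcript levels on that basis. NPRA is the natriuretic peptide receptor encoded by Npr1, a membrane guanylyl cyclase. The series title calls the deletion cardiac-specific and the labels describe a floxed NprA mouse, while the labels name no driver of the recombinase, no age and no strain. The labels call the arrays biological repetitions without naming animals. A p-value therefore reflects only how these samples vary, which may be technical, and precision is limited by the small number of arrays.

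Cyclic GMP in the heart comes from 2 kinds of cyclase. Membrane cyclases such as NPRA respond to natriuretic peptides, while the soluble enzyme, a dimer of an alpha and a beta subunit that binds heme, responds to nitric oxide. Cyclic GMP activates the kinases of the Prkg genes, which phosphorylate calcium handling and contractile proteins, and phosphodiesterases end the signal: Pde5a and Pde9a encode enzymes specific for cyclic GMP, Pde1c a calcium and calmodulin stimulated enzyme for both cyclic nucleotides, Pde2a an enzyme that cyclic GMP stimulates, and Pde3a an enzyme of cyclic AMP breakdown that cyclic GMP inhibits. The comparison bears on whether transcripts of this second route to cyclic GMP and of its breakdown differ when the receptor of the first is deleted.

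Levels here are log2 signals relative to the 75th percentile of the same array. Npr1 itself, read by 1 probe near background, had levels of -6.42, -5.53 and -5.59 on the NPRA-/- arrays, against -4.77, -6.14, -6.55, -6.00 and -5.93 on the NPRA+/+ arrays, so it did not separate the genotypes. Whether this probe lies inside the deletion is not stated, so it checks no label. NPRA-/- replicate 1 and NPRA+/+ replicate 1 stood apart from the other 6 arrays on the first principal component (47.3% of the variance) and were scanned on days 3 and 4 of 4, while only scan day 1 held both genotypes (replicates 2 and 3 of each). Over all 35329 probes tested the median fitted change was 0.21 on the log2 scale (NPRA-/- over NPRA+/+), and by quintiles of signal it was 0.63 for the dimmest probes and 0.05 for the brightest. The 9 cardiomyocyte markers were well above background on every array, with a summed linear signal of 765 to 1933 times the 75th percentile on NPRA-/- arrays and 403 to 1552 on NPRA+/+ arrays.

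Windows upstream of annotated starts are shown for 3 genes that had opposite patterns over the arrays: the subunit genes Gucy1b1 and Gucy1a1 were lowest on the arrays where Pde5a was highest. All are the 250 bases before the start from RefSeq on GRCm38.p6, read along the gene's strand. Capitals mark every match, on either strand, to the GC box GGGCGG, the CCAAT box, the TATA box with letters TATAAA, or the cyclic AMP response element with letters TGACGTCA.
Gucy1b1, chr3:82074712-82074961, minus strand: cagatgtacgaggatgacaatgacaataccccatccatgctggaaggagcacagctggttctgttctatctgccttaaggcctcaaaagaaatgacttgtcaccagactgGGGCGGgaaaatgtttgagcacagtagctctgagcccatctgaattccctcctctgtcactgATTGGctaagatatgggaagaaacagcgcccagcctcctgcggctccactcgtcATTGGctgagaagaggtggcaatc
Gucy1a1, chr3:82145651-82145900, minus strand: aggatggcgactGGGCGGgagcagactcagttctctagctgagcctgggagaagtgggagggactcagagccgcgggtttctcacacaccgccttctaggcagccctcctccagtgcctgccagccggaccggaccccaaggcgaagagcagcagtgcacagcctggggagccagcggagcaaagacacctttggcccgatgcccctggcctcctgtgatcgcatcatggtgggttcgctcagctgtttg
Pde5a, chr3:122728908-122729157, plus strand: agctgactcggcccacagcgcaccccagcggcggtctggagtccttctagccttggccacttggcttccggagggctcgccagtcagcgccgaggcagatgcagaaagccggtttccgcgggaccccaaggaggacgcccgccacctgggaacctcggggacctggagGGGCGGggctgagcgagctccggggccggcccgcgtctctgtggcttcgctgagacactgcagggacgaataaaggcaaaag

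Each of the 3 windows held 1 GC box, which 32.7% of the 32851 windows of this length in the table hold. Gucy1b1 held 2 CCAAT matches (33.8% of windows hold at least 1), and Gucy1a1 and Pde5a held 0. None of the 3 held the TATA box (12.4% of windows) or the cyclic AMP response element (1.55%). Gucy1a1 has more than 1 annotated start, and a further window of it is not shown. The window shown lies inside the annotated span of Gucy1a1, which reaches 82145946, so it is upstream of 1 start and not of the whole gene. Windows were matched for 7 of the 10 genes. Gucy1b1 and Gucy1a1 lie next to each other in the same orientation, with 17715 bases between them, and all 3 genes are on chromosome 3. A match is a description of letters only.

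Of the 14 probes, 0 passed limma's threshold (adjusted p under 0.05 over all probes tested, the smallest being 0.194 and the largest 0.979), where 0.348% of all probes did (0.32% higher and 0.0283% lower in NPRA-/-). At an unadjusted p under 0.05 there was 1, Pde9a, against 19.7% of all probes (18.3% higher and 1.36% lower). The fitted change was positive for 10 of the 14 probes (75% of all probes), and 1 probe had genotypes without overlap (15.4% of all probes). The median fitted change was 0.08 over the 14 probes, where it was 0.21 over all probes. Over the 10 genes with 1 probe each it was 0.09, where it was 0.16 over all genes so read. Of the 14 probes 10 lay below the median of all probes. Likewise 10, not all the same ones, lay below the median of their own quintile of signal. In bulk tissue, fewer cells of a type and less RNA per cell cannot be told apart.

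**Figure D1:**
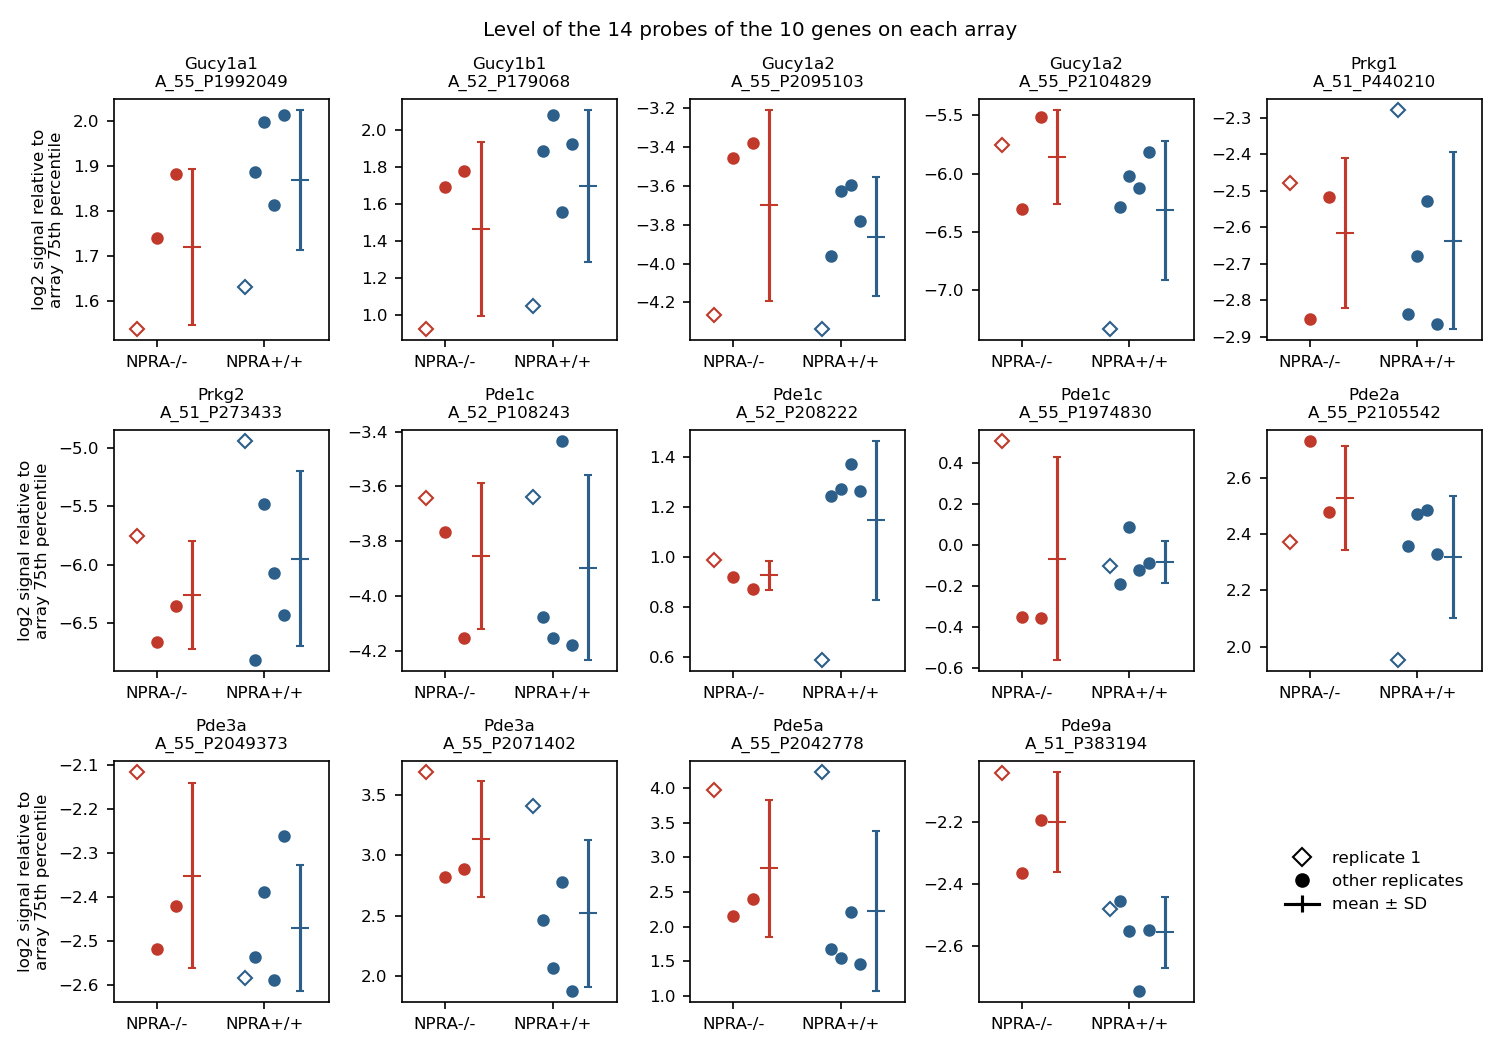
Each panel shows 1 of the 14 probes, with the log2 signal relative to the array's 75th percentile on the vertical axis, NPRA-/- arrays on the left in red and NPRA+/+ arrays on the right in blue. Open diamonds are the replicates 1, filled circles the other arrays, and bars the mean ± SD (n = 3 and n = 5). Only Pde9a has its 3 NPRA-/- arrays above all 5 NPRA+/+ arrays.

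Among the cyclase subunits, Gucy1a1, which encodes the alpha 1 subunit, had levels of 1.54, 1.74 and 1.88 on the NPRA-/- arrays, against 1.63, 1.89, 2.00, 1.81 and 2.01 on the NPRA+/+ arrays. The ranges overlapped, and the lowest array of each genotype was its replicate 1. Its fitted change was -0.15 ± 0.15 (SE; 95% interval -0.48 to 0.18; limma, adjusted p = 0.620), or 0.90-fold with an interval from 0.72 to 1.14. Gucy1b1, the gene of the beta 1 subunit that carries the heme, had levels of 0.92, 1.69 and 1.78 in NPRA-/- samples, against 1.05, 1.89, 2.08, 1.55 and 1.92 in NPRA+/+ samples. Here the replicates 1 were far below the rest in both genotypes, and the other NPRA-/- arrays lay inside the NPRA+/+ range. The fitted change was -0.23 ± 0.29 (95% interval -0.89 to 0.43; limma, adjusted p = 0.706). Without NPRA-/- replicate 1 it was 0.04.

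The partners of the dimer were also set against each other within each array, a difference that subtracting 1 value per array does not move, though quantile normalization can. The log2 level of Gucy1a1 minus that of Gucy1b1 was 0.61, 0.05 and 0.11 on the NPRA-/- arrays, against 0.58, 0.00, -0.08, 0.26 and 0.09 on the NPRA+/+ arrays. The size of the difference depends on the probes and only its movement between arrays can be read: it was larger on both replicates 1 than on any other array. Between genotypes it differed by 0.08 (0.26 ± 0.31 in NPRA-/- and 0.17 ± 0.26 in NPRA+/+ samples, SD, n = 3 and n = 5; exact permutation test, two-sided, p = 0.643, adjusted p = 0.771 over the 6 within-array differences computed). The smallest p this design allows is 0.0357.

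Gucy1a2 encodes the alpha 2 subunit, an alternative partner of beta 1, and was dim. Its brighter probe, A_55_P2095103, had levels of -4.27, -3.46 and -3.38 in NPRA-/- samples, against -4.34, -3.96, -3.62, -3.60 and -3.78 in NPRA+/+ samples. Both replicates 1 were the lowest arrays, and the other NPRA-/- arrays lay above every NPRA+/+ array. The fitted change was 0.16 ± 0.26 (95% interval -0.43 to 0.75; limma, adjusted p = 0.783) over 8 arrays and 0.32 ± 0.14 without both replicates 1 (limma, adjusted p = 0.176), but -0.22 after quantile normalization and -0.11 with scaling to the median. The second probe, A_55_P2104829, exceeded background clearly on 2 of 3 arrays of NPRA-/- and 3 of 5 of NPRA+/+, with levels from -6.30 to -5.52 and from -7.33 to -5.81. Its fitted change of 0.46 ± 0.35 was -0.29 after quantile normalization, so neither probe has a direction that holds under every scaling.

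Prkg1, the gene of the cyclic GMP kinase I of heart and vessel wall, had the fitted change nearest to 0 when each gene is read by its brightest probe. Its levels were -2.48, -2.85 and -2.52 on the NPRA-/- arrays, against -2.28, -2.84, -2.68, -2.53 and -2.87 on the NPRA+/+ arrays. It averaged -2.62 ± 0.20 in NPRA-/- and -2.64 ± 0.24 in NPRA+/+ samples (SD, n = 3 and n = 5), and the fitted change was 0.02 ± 0.18 (95% interval -0.38 to 0.43; limma, adjusted p = 0.964). The interval spans 0.77-fold to 1.35-fold. With quantile normalization the change was -0.25. Prkg2, the gene of kinase II, best known from intestine and bone, was close to background, and clearly exceeded it on 2 of 3 arrays of NPRA-/- and 2 of 5 of NPRA+/+. Its levels ran from -6.67 to -5.76 in NPRA-/- samples and from -6.83 to -4.94 in NPRA+/+ samples, the highest being NPRA+/+ replicate 1. The fitted change was -0.31 ± 0.43 (95% interval -1.30 to 0.68; limma, adjusted p = 0.741), -1.13 after quantile normalization and 0.52 with normexp background correction, so no direction can be given.

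Of the phosphodiesterases, Pde9a, whose enzyme has a high affinity for cyclic GMP, came closest to a difference. Its levels were -2.04, -2.36 and -2.19 on the NPRA-/- arrays, against -2.48, -2.45, -2.55, -2.75 and -2.55 on the NPRA+/+ arrays. All 3 NPRA-/- arrays lay above all 5 NPRA+/+ arrays, as for 1 of the 14 probes and 14.1% of all probes. Pde9a averaged -2.20 ± 0.16 in NPRA-/- and -2.56 ± 0.11 in NPRA+/+ samples (SD, n = 3 and n = 5), a fitted change of 0.36 ± 0.13 (95% interval 0.05 to 0.66; limma, adjusted p = 0.194), or 1.28-fold. The median change of probes of like signal was 0.22, which leaves 0.13 beyond it. The change was 0.30 without both replicates 1, 0.22 within scan day 1, 0.12 after quantile normalization and 0.08 with scaling to the median, positive in each.

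Pde5a, the target of sildenafil, had the widest spread of the 14 probes. Its levels were 3.98, 2.16 and 2.40 on the NPRA-/- arrays, against 4.24, 1.67, 1.55, 2.21 and 1.46 on the NPRA+/+ arrays. The replicates 1 were the highest arrays in both genotypes, and the range over the 8 arrays was 2.77, wider than that of 92.7% of all probes. Pde5a averaged 2.85 ± 0.99 in NPRA-/- and 2.23 ± 1.16 in NPRA+/+ samples (SD, n = 3 and n = 5), a fitted change of 0.62 ± 0.70 (limma, adjusted p = 0.675), or 1.54-fold with a 95% interval from 0.51 to 4.66. Without NPRA-/- replicate 1 the change was 0.05, and without NPRA+/+ replicate 1 it was 1.12, so either array decides its size.

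Within scan day 1, where NPRA-/- replicates 2 and 3 meet NPRA+/+ replicates 2 and 3, the change of Pde5a was 0.67 ± 0.13 (95% interval 0.32 to 1.02), or 0.50 above the median of all probes there. It was the 1 probe of the 14 that passed on those 4 arrays (limma, adjusted p = 0.0418), where 16.9% of all probes did. The genotypes were scanned at different times of that day, so scan time and genotype cannot be told apart within it. Without both replicates 1, on 2 NPRA-/- and 4 NPRA+/+ arrays, the change was 0.56 ± 0.23 and did not pass (limma, adjusted p = 0.174). In that set NPRA+/+ replicate 4 at 2.21 lay just above NPRA-/- replicate 2 at 2.16.

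Pde3a was read by 2 probes that did not follow each other over the arrays. The brighter, A_55_P2071402, had levels of 3.69, 2.82 and 2.89 on the NPRA-/- arrays, against 3.41, 2.47, 2.07, 2.78 and 1.87 on the NPRA+/+ arrays. It resembled Pde5a in having both replicates 1 on top and NPRA+/+ replicate 4 above the other NPRA+/+ arrays of scan days 1 and 2, and outside the replicates 1 both NPRA-/- arrays lay above all 4 NPRA+/+ arrays. Its fitted change was 0.62 ± 0.37 (95% interval -0.23 to 1.46; limma, adjusted p = 0.402), and 0.59 ± 0.17 within scan day 1 (limma, adjusted p = 0.0862). The dimmer probe, A_55_P2049373, stayed between -2.52 and -2.12 in NPRA-/- samples and between -2.59 and -2.26 in NPRA+/+ samples. Its fitted change was 0.12 ± 0.15 (limma, adjusted p = 0.706), and -0.12 after quantile normalization. The brighter probe minus the dimmer one was 5.81, 5.34 and 5.31 on the NPRA-/- arrays, against 5.99, 5.01, 4.45, 5.37 and 4.13 on the NPRA+/+ arrays, a difference between genotypes of 0.49 that did not pass (exact permutation test, two-sided, p = 0.357, adjusted p = 0.696).

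**Figure D2:**
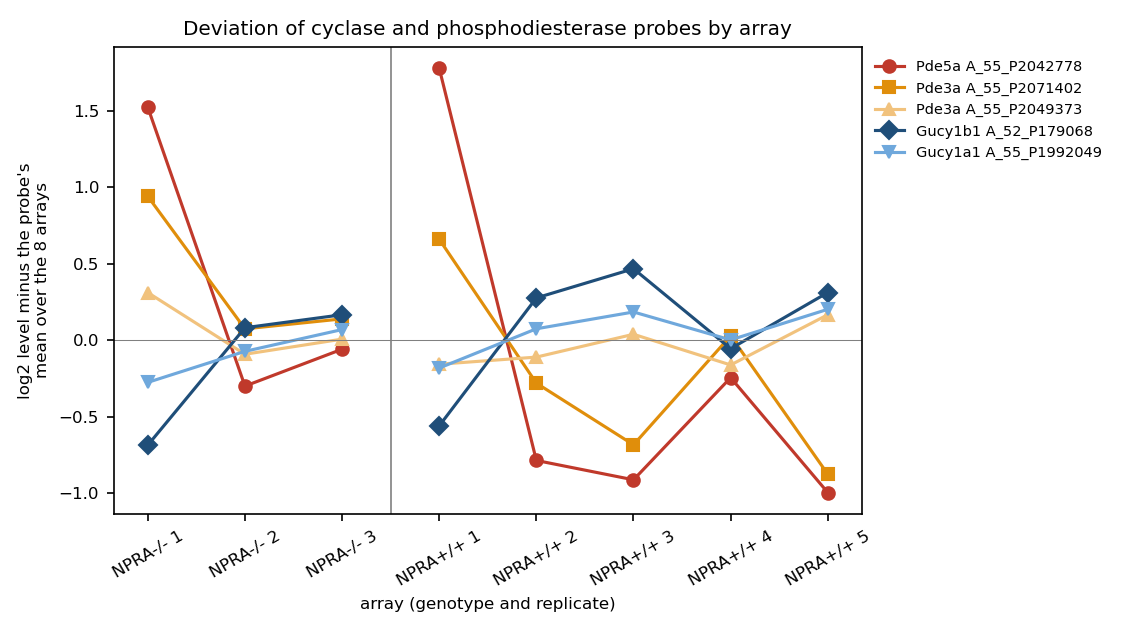
The vertical axis gives the log2 level of 5 probes minus the probe's own mean over the 8 arrays, and the horizontal axis the arrays, NPRA-/- before NPRA+/+. Pde5a and the brighter Pde3a probe are highest on the replicates 1 of both genotypes, where Gucy1b1 and Gucy1a1 are lowest, while the dimmer Pde3a probe has a range of 0.473 in all.

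Pde1c, read by 3 probes that name different RefSeq transcripts, gave different values by probe. A_52_P208222 had levels of 0.99, 0.92 and 0.87 in NPRA-/- samples, against 0.59, 1.24, 1.27, 1.37 and 1.26 in NPRA+/+ samples. The NPRA-/- arrays lay below all NPRA+/+ arrays other than NPRA+/+ replicate 1, the lowest of the 8. The fitted change was -0.22 ± 0.19 (95% interval -0.66 to 0.22; limma, adjusted p = 0.579) over 8 arrays, -0.36 ± 0.10 without NPRA+/+ replicate 1 (limma, adjusted p = 0.0663), and -0.36 ± 0.09 within scan day 1 (limma, adjusted p = 0.0628). Without both replicates 1 it was -0.39 ± 0.09 and passed (limma, adjusted p = 0.0499), as did 11.7% of all probes. It was the 1 probe of the 14 past the threshold in that set of arrays, which was chosen after the data were seen.

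The other Pde1c probes did not repeat this over the 8 arrays. A_55_P1974830 had levels of 0.51, -0.35 and -0.35 in NPRA-/- samples, against -0.10, -0.19, 0.09, -0.12 and -0.09 in NPRA+/+ samples, with the highest array of all and the lowest pair in NPRA-/-. Its fitted change was 0.02 ± 0.21 (limma, adjusted p = 0.979) and -0.28 ± 0.11 without both replicates 1 (limma, adjusted p = 0.166). The dim probe A_52_P108243 lay between -4.15 and -3.64 in NPRA-/- samples and between -4.18 and -3.43 in NPRA+/+ samples, with a fitted change of 0.04 ± 0.22 (limma, adjusted p = 0.941). The within-array differences between the 3 Pde1c probes gave exact permutation p-values of 0.321 to 0.929 between genotypes (two-sided), and that between the 2 Gucy1a2 probes 0.429, with adjusted p-values of 0.696 to 0.929.

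Pde2a, whose enzyme links a rise of cyclic GMP to breakdown of cyclic AMP, had levels of 2.37, 2.73 and 2.48 on the NPRA-/- arrays, against 1.95, 2.36, 2.47, 2.48 and 2.33 on the NPRA+/+ arrays. NPRA+/+ replicate 1 was the lowest array and the groups overlapped. Pde2a averaged 2.53 ± 0.18 in NPRA-/- and 2.32 ± 0.22 in NPRA+/+ samples (SD, n = 3 and n = 5), a fitted change of 0.21 ± 0.17 (95% interval -0.17 to 0.59; limma, adjusted p = 0.537). That is the median change of all probes, and 0.16 above the median of probes of like signal. With scaling to the median it was -0.07.

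**Figure D3:**
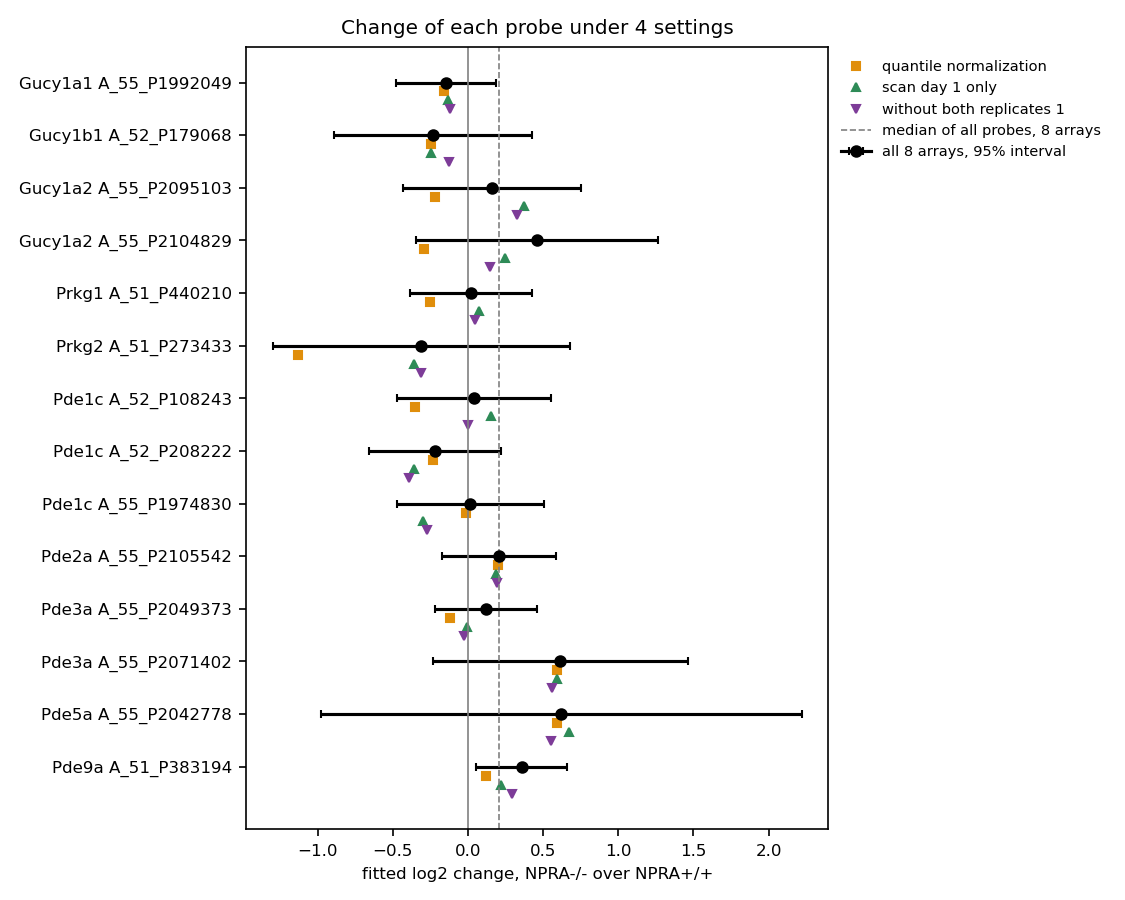
Fitted log2 change of each probe, NPRA-/- over NPRA+/+, with its 95% interval over 8 arrays (black), and the change after quantile normalization, on scan day 1 alone and without both replicates 1. The dashed line is the median of all probes, 0.21. Pde9a is the only probe whose interval leaves out 0, and that of Pde5a, from -0.98 to 2.22, is the widest.

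The 2 arrays that stood apart were thus extreme for several members. They were the 2 highest of the 8 arrays for Pde5a, the brighter Pde3a probe and Prkg1 (19.9% of all probes), and the 2 lowest for Gucy1a1, Gucy1b1 and the brighter Gucy1a2 probe (17.4%). These are 6 of 14 probes, where 37.3% of all probes with 8 values had these 2 arrays at 1 end. A range of at least 1 on the log2 scale was found for 5 of the 14 probes and 50.8% of all probes. Pde5a, Pde3a, Gucy1b1, Prkg2 and the dimmer Gucy1a2 probe were those 5. Cardiomyocyte markers also moved with these arrays: their summed signal was 1933, 795 and 765 on the NPRA-/- arrays, against 1552, 665, 609, 554 and 403 on the NPRA+/+ arrays. This was not particular to them. Sums of fibroblast markers (206 and 180) and of nodal and neuronal markers (6.97 and 9.50) were also highest on the NPRA-/- and NPRA+/+ replicates 1. Of the fibroblast markers, Pdgfra was instead lowest on both. The part of these sums in the results for Pde5a and Pde3a was not tested. Endothelial markers (7 of 7 tested) summed to 34.5, 41.7 and 43.3 on the NPRA-/- arrays, against 34.8, 45.2, 49.3, 35.7 and 43.8 on the NPRA+/+ arrays. This sum was low on the replicates 1, as the cyclase subunits were, and on NPRA+/+ replicate 4 too. Of the 7 markers only Kdr, the brightest, was lowest on both replicates 1 (log2 levels of 3.89 and 4.11). Emcn was highest of all on NPRA-/- replicate 1 (1.01), so the sum does not speak for each marker. Pericyte markers (6 of 6) summed to 21.0, 26.3 and 25.3 on the NPRA-/- arrays, against 21.0, 25.4, 24.8, 23.9 and 23.5 on the NPRA+/+ arrays, a sum lowest on both replicates 1. Only Pdgfrb and Notch3 among the 6 were each lowest on both, and Cspg4 was highest of all on NPRA-/- replicate 1 (-1.32). The part of either in the cyclase results was not tested.

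By the correlation of log2 levels over the 8 arrays, after each genotype's mean was subtracted, the genes of most like pattern among 15620 included Gpsm2 for Gucy1a1, and were Zcchc9 and Mocos for Gucy1b1. They were Uri1 and Aff1 for Gucy1a2, S100a10 and Tas1r3 for Prkg1, Rbm42 and Zfpm2 for Pde1c, and Ankrd24 and L1td1 for Pde2a. For Pde3a they were Abca7 and Sox10, for Pde5a Cd48 and Erp27, and for Pde9a Gpr182 and Olfr441. Pearson's r was 0.968 to 0.997 for these pairs. The values share the 2 arrays that stand apart, and on the other 6 arrays r was 0.664 to 0.995, lowest for Pde1c with Zfpm2. No gene was named for both cyclase subunits, and with this many genes compared such values describe likeness only.

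Further genes of the pathway were read in 5 lists, and 0 of their genes passed the threshold over all probes in either direction, against 0.348% of all probes. The median of all genes with 1 probe each was 0.16. Among 19 other phosphodiesterases the median change was 0.08, of which 1 was higher and 1 lower by unadjusted p under 0.05. Over all probes 18.3% were higher and 1.36% lower by that measure, which holds for each list that follows. The lower was Pde4b, which breaks down cyclic AMP, at -0.44 ± 0.15 (limma, adjusted p = 0.171), and its other probes were at -0.07 and 0.32. The higher was Pde6b, of the photoreceptor enzyme, at 0.98 ± 0.37 (limma, adjusted p = 0.197), and at 0.53 after quantile normalization (limma, adjusted p = 0.696). Its probe was dim, with a mean level of -4.48, and the median change was 0.63 and 0.40 in the dimmest 2 quintiles of all probes. Pde6b passed within scan day 1 and without both replicates 1 (limma, adjusted p = 0.0400 and 0.0388). Of all probes 16.9% and 11.7% passed in these 2 settings, which holds for each list gene that follows. The brightest, Pde4c, had levels of 6.36, 4.89 and 4.61 on the NPRA-/- arrays, against 6.43, 4.18, 3.84, 4.46 and 3.62 on the NPRA+/+ arrays. As for Pde5a, its 2 replicates 1 were far above the rest, and its fitted change was 0.78 ± 0.67.

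Upstream of the soluble cyclase, the 12 nitric oxide synthases and partners had a median of 0.11, of which 1 was higher and 0 lower by unadjusted p under 0.05. That gene was Nos1ap, an adaptor of the neuronal synthase, at 0.51 ± 0.20 (limma, adjusted p = 0.215). Hsp90aa1, a chaperone that binds the endothelial synthase and the brightest of the list, was at 0.44 ± 0.23 (limma, adjusted p = 0.341). The 10 other guanylyl cyclases and cyclic GMP exporters had a median of 0.01, of which 0 were higher and 1 lower by unadjusted p under 0.05. Gucy1b2, the gene of a second beta-type subunit of the soluble family, had levels of 0.63, 1.33 and 1.48 on the NPRA-/- arrays, against 3.54, 2.10, 2.26, 2.80 and 2.37 on the NPRA+/+ arrays. The genotypes did not overlap, as for 1.29% of all probes in this direction, and the fitted change was -1.47 ± 0.35 (limma, adjusted p = 0.0874). The same probe was at -1.47 after quantile normalization (limma, adjusted p = 0.369). It was at -0.78 within scan day 1 and -0.98 without both replicates 1, and passed in both (limma, adjusted p = 0.0292 and 0.0379). In either direction 16.9% and 11.7% of all probes passed there. Of the same list, Gucy2e, a membrane cyclase of photoreceptors, was at 1.05 ± 0.47 (limma, adjusted p = 0.267), with its other 2 probes at -0.43 and -0.54 (0.39 and 0.32 with normexp). Within scan day 1 the first passed at 0.82 and the last at -0.58 (limma, adjusted p = 0.0430 and 0.0469), in opposite directions. The brightest of the list, Gucy2f, was at -0.14 ± 0.35 (limma, adjusted p = 0.864).

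Downstream, the 15 cyclic GMP kinase substrates and partners had a median of 0.17, of which 1 was higher and 0 lower by unadjusted p under 0.05. Kcnma1, which encodes the large-conductance calcium-activated potassium channel of smooth muscle, had levels of -3.50, -3.90 and -3.60 on the NPRA-/- arrays, against -4.87, -4.38, -4.30, -4.65 and -4.78 on the NPRA+/+ arrays. The genotypes did not overlap, as for 14.1% of all probes in this direction, and the fitted change was 0.93 ± 0.18 (limma, adjusted p = 0.0693). It was 0.59 within scan day 1 (limma, adjusted p = 0.0596). Without both replicates 1 it was 0.78 and passed (limma, adjusted p = 0.0459), as did 11.7% of all probes. Its other probes were at 0.59 ± 0.33 and 1.06 ± 0.23, and all 3 were positive under each of 4 other scalings or value sources, down to 0.15. Both other probes passed within scan day 1, at 1.34 and 1.52 (limma, adjusted p = 0.0339 and 0.0290), where 16.9% of all probes did. Without both replicates 1 the former did not pass and the latter did (limma, adjusted p = 0.131 and 0.0340). Over the 8 arrays only the latter of these had no overlap between genotypes. Of the 8 smooth muscle markers 0 passed over the 8 arrays. Myh11 at 0.74 ± 0.19, Mylk at 0.58 ± 0.14 and Lmod1 at 0.67 ± 0.16 separated the genotypes without overlap (limma, adjusted p = 0.0849 to 0.0945), as did 14.1% of all probes with NPRA-/- higher. These 3 were dim, as was Kcnma1, and the median change was 0.63 and 0.40 in the dimmest 2 quintiles of all probes. With quantile normalization Myh11, Mylk and Lmod1 were at 0.35, 0.21 and 0.19. Within scan day 1 Mylk and Lmod1 passed and Myh11 did not (limma, adjusted p = 0.0346, 0.0244 and 0.0758), where 16.9% of all probes passed. Without both replicates 1 Mylk passed, and Lmod1 and Myh11 did not (limma, adjusted p = 0.0391, 0.0635 and 0.0548), where 11.7% of all probes passed. The other markers overlapped between genotypes, with Acta2 at 0.26, Cnn1 at 0.22, Des at 0.11, Tagln at 0.07 and Smtn at -0.0063. The list's summed signal was 29.7 to 54.6 on NPRA-/- and 32.3 to 38.9 on NPRA+/+ arrays, and its part in the values of Kcnma1 was not tested. Vasp, an actin regulator used as a readout of kinase activity, was at 0.25 ± 0.14 (limma, adjusted p = 0.370; -0.02 with scaling to the median), and the brightest of the list, Mybpc3, at 0.56 ± 0.46 (limma, adjusted p = 0.547). The 9 cyclic AMP kinase subunits and inhibitors had a median of 0.04, with 0 at an unadjusted p under 0.05 in either direction by the brightest probe of each gene. Prkar2b was at 0.48 ± 0.23 over 8 arrays (limma, adjusted p = 0.294). It passed within scan day 1 and without both replicates 1 (limma, adjusted p = 0.0268 and 0.0309), as did 16.9% and 11.7% of all probes. Its other probes were at 0.61 ± 0.18 (limma, adjusted p = 0.126) and at 0.08. The former had no overlap between genotypes, as for 14.1% of all probes with NPRA-/- higher. It passed within scan day 1 but not without both replicates 1 (limma, adjusted p = 0.0261 and 0.130). The latter went the other way in these settings, at -0.087 and -0.021, and was at -0.23 after quantile normalization. Prkar1b was at 0.23 ± 0.14 (limma, adjusted p = 0.413; -0.05 with scaling to the median) and the brightest, the inhibitor gene Pkig, at -0.15 ± 0.23 (limma, adjusted p = 0.770), its second probe being at 0.18.

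**Figure D4:**
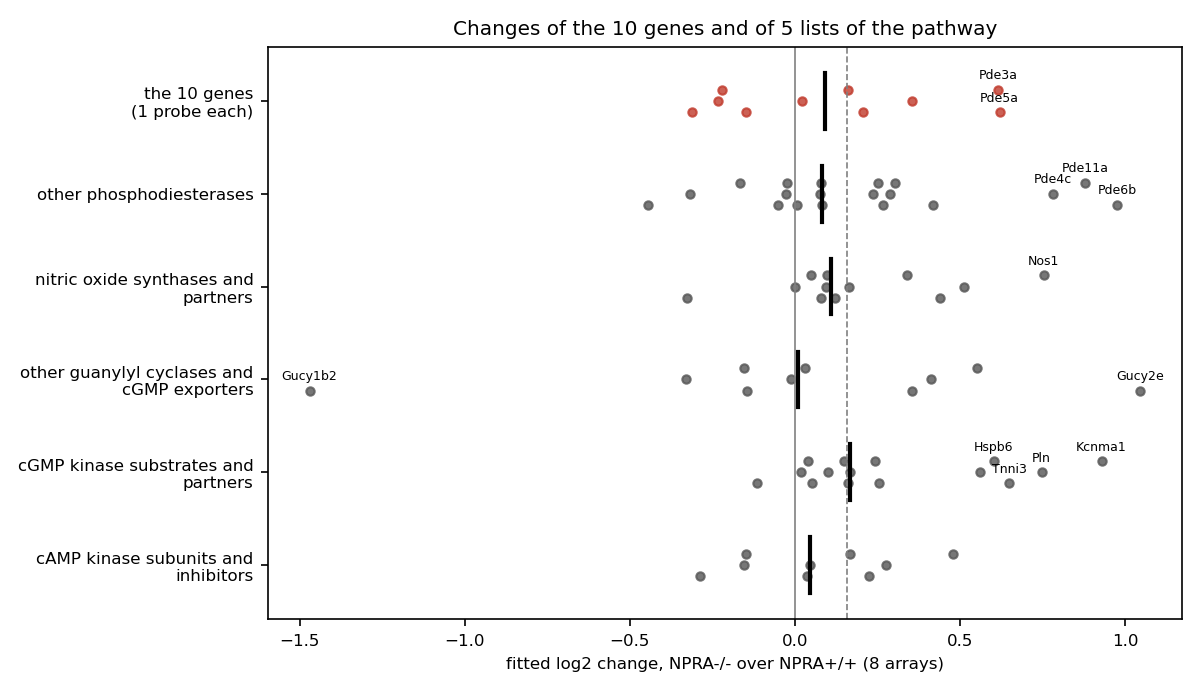
Fitted log2 change over 8 arrays, NPRA-/- over NPRA+/+, for the 10 genes (red, 1 probe each) and for the genes of 5 lists of the same pathway (grey). Thick bars are list medians and the dashed line is the median of all genes, 0.16. Gucy1b2 at -1.47 lies lowest and Gucy2e at 1.05 highest, and no gene shown passed the threshold.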

How the data were processed

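The authors' scanner files hold intensity values per spot from Agilent Feature Extraction 11.0.1.1, background-corrected within the array and not scaled between arrays, per the file headers. The deposited series table holds log2 values whose normalization no label or header states. All its columns have a median of 7.04, and each ranks the probes as its own array does. It was used as an alternative.

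Controls were removed and outlier-flagged spots treated as missing (no member probe lost an array), and log2 signals were averaged per probe and set relative to each array's 75th percentile. A probe was well above background where at least 0.5 of its spots were, and probes so on at least 3 arrays were tested (35329 of 39429). Probes were named through RefSeq transcripts and the gene table of GRCm38.p6, and the arrays name an older build, so no probe positions are given. For a gene in a list, the probe with the highest mean stood. The test was limma 3.58.1 (R 4.3.3), two-sided, through lmFit and then eBayes, with genotype as the only term. Benjamini-Hochberg adjustment ran across every probe tested, with a threshold of 0.05. The fit was also tested on simulated data with independent noise for each probe and array. Those data held no arrays that stand apart and no shift of dim probes, so they cannot speak for false calls here. Each p tests the fitted change against 0, not against the shift of all probes.

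The members, lists and the rule for named genes (all members, and from each list the 2 genes of smallest p and the brightest) were chosen with earlier results of these data known. The repetition number in the labels was run as a block. Across probes, the deviations from the genotype means in samples sharing a number had correlations of 0.63, 0.28 and 0.36. Each was over 0.1, the value taken as a sign of pairing. Samples with unequal repetition numbers, outside the replicates 1, had 0.12 to 0.33, all over 0.1 too. The rule therefore cannot show whether the numbers pair the samples, and no label states a shared litter, batch or day. The source names number the NPRA+/+ arrays differently, and that numbering was run too. With the repetition number as a block, the count over all probes was 0 in place of 123, and 0 of the member probes passed. SEs of the members moved either way with this block. Pde5a was at 0.36 ± 0.25 and Gucy1b1 at -0.21 ± 0.12, but Pde1c A_55_P1974830 at 0.0014 ± 0.24 (limma, adjusted p = 0.468, 0.380 and 0.998). Arrays that share a scan time were taken as a random block (6 scan times, 0 with both genotypes). Other alternatives were other scalings, filters, the background correction (normexp with an offset of 50, on median spot signals), scan day, a variance trend, averaging of arrays of 1 source name number, and leaving out arrays. Leaving out both replicates 1 was added after seeing the data. One gene of like pattern is not reported here.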

Additional observations from a re-analysis of the deposited data

Results flagged for a closer look

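In the 5 NPRA+/+ arrays, 5 of 29 probes examined had 1 array whose gap to the nearest other, divided by the whole range, passed Dixon's 95% critical value of 0.71, where chance flags about 1 group in 20. NPRA+/+ replicate 1 was that array for 4 of them: Pde5a at 4.24 (next 2.21), Pde1c A_52_P208222 at 0.59 (next 1.24), Pde2a at 1.95 (next 2.33) and Pkig at 4.71 (next 5.33). NPRA+/+ replicate 5 was it for Gucy2e at -4.61 (next -2.78). NPRA-/-, with 3 arrays, was not examined in this way. The share of all probes that this rule flags was not computed. The 29 probes share the same arrays, and NPRA+/+ replicate 1 stood apart on the first principal component of the tested probes. The count therefore gives no result about these genes.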

How the results depend on the processing

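Over all probes the count past the threshold was 123. It was 0 with quantile normalization, scaling to the median, normexp, the deposited table, scan day as a block, scan time as a random block, averaging of arrays of 1 source name number and a variance trend (limma throughout, with 2848 to 9969 probes at an unadjusted p under 0.05). It was 193 without a filter on dim probes, 3 with probes well above background on all 8 arrays, and 5979 within scan day 1. As a replicate block, the repetition number gave 0 and the source name number 22. Leaving out 1 array gave 0 to 4088, the highest without NPRA+/+ replicate 1 and 0 without any other, and leaving out both replicates 1 gave 4134. Of the 14 member probes 0 passed, and 1 passed within scan day 1 (Pde5a) and without both replicates 1 (Pde1c A_52_P208222). Under all other settings, the replicate block by either numbering and each array left out included, 0 passed.

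Directions turned with the setting for several probes, dim and bright, the cause of which was not tested. Quantile normalization and the deposited table gave -0.22 and -0.21 for Gucy1a2 A_55_P2095103, -0.29 in both for A_55_P2104829, -0.35 and -0.34 for Pde1c A_52_P108243, -0.12 and -0.11 for Pde3a A_55_P2049373, and -0.25 and -0.24 for Prkg1. Pde1c A_55_P1974830 turned with quantile normalization (-0.013) only of these 2. Scaling to the median gave -0.11 for Gucy1a2 A_55_P2095103, -0.23 for Pde1c A_52_P108243, -0.26 for Pde1c A_55_P1974830, -0.15 for Pde3a A_55_P2049373, -0.25 for Prkg1 and -0.068 for Pde2a. Normexp gave 0.52 for Prkg2. With the repetition number as a replicate block Prkg1 was at -0.018. Scan day as a block has the same estimates for these probes as scan day 1 alone, though not the same SEs or calls. It gave -0.30 for Pde1c A_55_P1974830 and -0.0065 for Pde3a A_55_P2049373, and leaving out both replicates 1 gave -0.28 and -0.026. Leaving out 1 array gave ranges across 0 for Gucy1a2 A_55_P2095103 (-0.0016 to 0.44), Gucy1b1 (-0.40 to 0.036), Pde1c A_52_P108243 (-0.063 to 0.19), Pde1c A_55_P1974830 (-0.27 to 0.16) and Prkg1 (-0.046 to 0.14). The sign of Gucy1a1, of Pde1c A_52_P208222, of the brighter Pde3a probe, of Pde5a and of Pde9a held under every setting run. Signal near background limits Prkg2, Npr1 and A_55_P2104829.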
